A study of Mus musculus with 2 samples.

Results

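Gfap, Vim, Nes, Lcn2, Serpina3n, Akap12 and Steap4 are genes linked to gliosis, the reaction of glial cells to injury, and were followed here in Müller glia and in the other cells of the mouse retina. They are 7 of the 31053 genes in the files, taken by symbol, and all 7 were found. They were chosen by their UMI counts in Müller glia of these same 2 libraries, so the differences between OIR and control given below describe the 2 libraries, and nothing is tested with them.

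The OIR library came from the pooled retinas of 6 wild-type C57BL/6 mice with oxygen-induced retinopathy (OIR), killed at postnatal day 17. Such pups, with their nursing mother, are kept in 75% oxygen between postnatal days 7 and 12 and then in room air. For the control library, retinas of 6 wild-type C57BL/6 mice of the same age, labelled as controls, were pooled. In both, cells bound by CD11b magnetic beads, which capture microglia and other myeloid cells, were sequenced in droplets, and the cells are labelled as retinal microglia. Most cells nevertheless carried rod photoreceptor markers: 3600 of 6132 OIR cells and 6692 of 8585 control cells were rod-like, while 427 OIR cells and 835 control cells were microglia-like. The glia described here are therefore cells that came through the bead selection, and their share of cells is not that of the retina.

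Müller glia are the radial glia of the retina. They span its whole depth, take up glutamate and move potassium and water, and in injury they are known to build up intermediate filaments. GFAP, vimentin and nestin are intermediate filament proteins. GFAP is scarce in Müller glia of healthy mouse retina, where astrocytes of the inner surface carry it, vimentin is present in resting Müller glia, and nestin is best known from neural progenitors. Lipocalin 2 (Lcn2) is a secreted protein that binds iron-carrying siderophores, and Serpina3n is a secreted inhibitor of serine proteases, and both are widely used as markers of reactive astrocytes. Akap12 encodes a scaffold that holds protein kinases A and C near the membrane, and Steap4 encodes a membrane enzyme that reduces iron and copper.

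Because 6 of the members were higher together in OIR Müller glia-like cells, the promoters of 3 of them are shown, Gfap as the classical mark of gliosis and Serpina3n and Lcn2 as members nearly absent from control Müller glia-like cells, from RefSeq (build GRCm38.p6, the sequence of mm10). Each runs from 250 bases before the annotated start to 50 bases after it, on the gene's own strand, with the only matches to the searched motifs in capitals: a STAT-type TTCNNNGAA in Gfap (chr11:102897151-102897450, minus strand), an NF-kB-type GGG, any 2 bases and TTTCC in Serpina3n (chr12:104406458-104406757, plus strand) and a C/EBP-type TTGCNNAA in Lcn2 (chr2:32387690-32387989, minus strand).
Gfap: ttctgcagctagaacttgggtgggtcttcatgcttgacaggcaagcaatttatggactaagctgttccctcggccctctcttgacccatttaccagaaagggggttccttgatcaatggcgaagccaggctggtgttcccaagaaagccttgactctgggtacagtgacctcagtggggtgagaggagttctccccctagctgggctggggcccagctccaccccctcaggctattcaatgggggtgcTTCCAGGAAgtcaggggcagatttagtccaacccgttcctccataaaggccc
Serpina3n: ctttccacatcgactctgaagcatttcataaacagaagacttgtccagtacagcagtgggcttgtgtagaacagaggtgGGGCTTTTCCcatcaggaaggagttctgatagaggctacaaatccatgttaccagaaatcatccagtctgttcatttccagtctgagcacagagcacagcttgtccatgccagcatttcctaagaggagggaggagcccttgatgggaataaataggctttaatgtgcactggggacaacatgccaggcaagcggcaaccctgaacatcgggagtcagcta
Lcn2: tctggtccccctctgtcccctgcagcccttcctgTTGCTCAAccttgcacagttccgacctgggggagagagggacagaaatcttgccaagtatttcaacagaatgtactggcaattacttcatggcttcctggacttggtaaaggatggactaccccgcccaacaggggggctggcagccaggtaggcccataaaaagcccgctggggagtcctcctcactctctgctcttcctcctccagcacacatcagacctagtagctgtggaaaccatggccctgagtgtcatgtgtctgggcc

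The table of promoters held 6 of the 7 members, all but Akap12, and both strands of each were searched. The STAT-type letters were in the promoters of Gfap and Steap4, 2 of 6, and in 8.30% of all 32851 promoters of the same length. The NF-kB-type letters were in Vim, Serpina3n and Steap4, 3 of 6, against 1.63% of all promoters, and the C/EBP-type letters in Lcn2 and Steap4, against 10.8%. Neither the AP-1-type TGANTCA, held by 7.81% of all promoters, nor the hypoxia-type ACGTG or GCGTG, held by 43.8%, was in any of the 6 windows. Steap4 held 3 kinds of match and Nes held none. Apart from that of Serpina3n, the windows follow RefSeq starts that lie inside the GENCODE genes given below. These are matches of letters only, and the series has no measurement of binding.

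On mm10, in the GENCODE annotation, Gfap lies on chromosome 11 from 102887336 to 102900912 (minus strand), Vim on chromosome 2 from 13573927 to 13582826 (plus), Nes on chromosome 3 from 87971078 to 87980451 (plus) and Lcn2 on chromosome 2 from 32384633 to 32388252 (minus). Serpina3n lies on chromosome 12 from 104406729 to 104414329 (plus), Akap12 on chromosome 10 from 4266380 to 4359470 (plus) and Steap4 on chromosome 5 from 7960457 to 7982213 (plus). Only Gfap overlaps another annotated gene, the long noncoding Gm26668 on the other strand, which had 6 UMIs in OIR and 2 UMIs in control Müller glia-like cells. Serpina3n belongs to a family of close copies whose reads could be split or lost in counting. Of the other 9 Serpina3 genes in the files, Serpina3i had 2 UMIs in OIR Müller glia-like cells and the remaining 8 had 0 in both libraries.

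The files hold unique molecular identifiers (UMIs), counts of captured RNA molecules, 49773742 in the OIR library and 50081145 in the control library. Müller glia-like cells formed 1 cluster of 388 OIR cells and 260 control cells, made without use of the 7 genes. All 12 fixed Müller markers were detected in it, and 6 of them were among its 10 leading genes. Cells held a median of 10607.5 UMIs in OIR and 8980.5 UMIs in control, 5328506 and 2882056 UMIs in all. Levels are given as CPM, the UMIs of a gene scaled to 1000000 UMIs of the class in its library, with exact 95% intervals. With 1 library a group there is no check by replicates and no p-value, and intervals cover counting error only.

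Some properties of the cluster moved with the condition. The 12 Müller markers summed to 0.951% of UMIs in OIR and 1.81% in control. Rod markers took 2.82% of UMIs in OIR and 2.26% in control, cone markers 714 CPM and 146 CPM, red cell markers 73.0 CPM and 5.20 CPM, and mitochondrial genes 5.18% and 7.21%. All 6 astrocyte markers were seen in OIR and 4 in control, with a sum of 184 CPM against 78.8 CPM. Pdgfra, a defining marker of retinal astrocytes, had 95 UMIs against 5, Pax2 had 6 against 0 and Gja1 had 8 against 0. Igfbp5 had 548 UMIs against 48 and S100b 87 against 28, while Aldh1l1 stood at 44.1 CPM in OIR and 50.7 CPM in control. The intervals of the log2 ratio included 0 for Pax2, Gja1 and Aldh1l1. The pericyte marker Rgs5 had 57 UMIs in OIR and 0 in control, while Kcnj8 and Higd1b were at 0 in both, and the list summed to 31.2 CPM against 46.8 CPM. The endothelial list summed to 584 CPM in OIR and 841 CPM in control, nearly all from Kdr and Flt1, with Cldn5 at 0 UMIs against 1. Of 7 neutrophil markers 4 were seen in OIR and 1 in control, 11 UMIs against 1, with Retnlg, Ngp and Ly6g at 0 in both. Leaving out each cell with a UMI of a defining astrocyte, vessel or neutrophil marker kept 325 OIR cells and 252 control cells. The OIR cells kept held 442 of the 1012 Lcn2 UMIs, 180 of 412 for Serpina3n and 476 of 869 for Gfap. They held 351 of 559 UMIs for Akap12, 197 of 280 for Nes and 6731 of 9016 for Vim. The cells left out thus carried many UMIs of these genes, most of all for Lcn2 and Serpina3n. Their share of all UMIs is not given, so whether the genes were enriched in them was not tested. In these cells OIR lay above control by a log2 ratio of 3.64 for Gfap, 0.82 for Vim, 2.67 for Nes, 6.23 for Lcn2 and 5.90 for Akap12, with a bound of 5.35 for Serpina3n. In the 211 OIR cells and 195 control cells with at most 2% rod marker UMIs, the log2 ratio was 4.05 for Gfap, 0.97 for Vim, 3.31 for Nes, 7.47 for Lcn2 and 6.35 for Akap12, with a bound of 5.91 for Serpina3n. The part of cone and red cell RNA in the results was not tested.

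The libraries shared 89 barcodes. Of the OIR Müller glia-like cells, 11 had a barcode that is also in the control library, and 8 of the 11 had 34063 to 88362 UMIs in OIR and 523 to 939 UMIs under the same barcode in control. These 11 cells held 45.8% of the Lcn2 UMIs of OIR Müller glia-like cells, 31.1% of those of Serpina3n, 16.6% of Akap12, 15.5% of Gfap, 9.29% of Nes and 7.55% of Vim. Each member is given below with and without them.

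In OIR Müller glia-like cells 6 of the 7 genes stood at least 1.5-fold above control, with an interval that excluded equality and at least 20 CPM in 1 library. Over all 6869 genes at that level, 8.37% were called higher and 13.1% lower by the same rule. Since the genes were chosen for this difference, nothing is read from their count. Ranked by the ratio among the 6869 genes, Lcn2 was number 1, Akap12 number 6, Gfap number 16, Nes number 36 and Vim number 263. These places take genes with 0 control UMIs at their bound, and Serpina3n, number 4 at its bound, may rank higher, so its order against Lcn2 is not known.

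**Figure D1:**
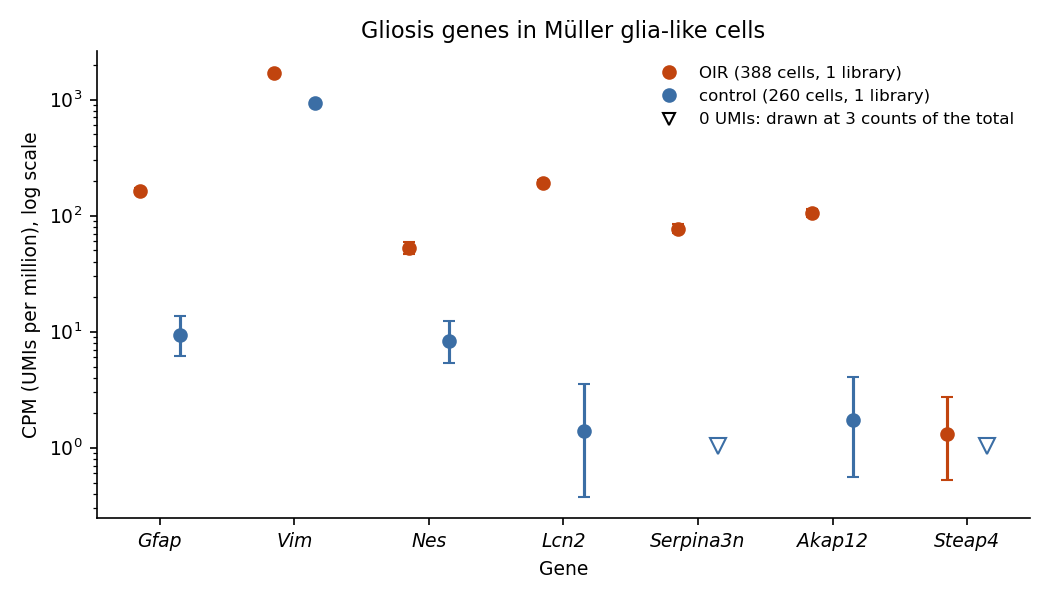
Levels of the 7 genes in Müller glia-like cells, in CPM on a log scale, with exact Poisson 95% intervals, for OIR (left of each pair) and control. Apart from Vim, at 1692 and 936 CPM, the genes called higher sat between 52.5 and 190 CPM in OIR and below 10 CPM in control, and Serpina3n and Steap4 had 0 control UMIs.

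Among the filament genes, Gfap had 869 UMIs in 388 OIR cells, 163 CPM (interval 152 to 174), and 27 UMIs in 260 control cells, 9.37 CPM (6.17 to 13.6). The log2 ratio was 4.12 (3.57 to 4.73), a 17.4-fold difference. Control Gfap rested on few cells: 4 cells had any UMI, and 1 of them, a cell of 34958 UMIs, held 20 of the 27. Without the cell with the most Gfap in each library the log2 ratio was 5.86 (4.81 to 7.18), and without the shared barcodes Gfap stood at 153 CPM in OIR against 9.55 CPM in control. In OIR the gene was seen in 141 cells, and 11 of them held 50% of its UMIs.

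Vim was the most abundant of the 7 in both libraries and the least changed of those called. It stood at 1692 CPM (1657 to 1727) in OIR and 936 CPM (901 to 972) in control, from 9016 and 2698 UMIs. The log2 ratio was 0.85 (0.79 to 0.92), 1.81-fold. Nearly every cell had it, 382 of 388 in OIR and 255 of 260 in control, a share too close to all cells to show a difference. Without the shared barcodes Vim stood at 1733 CPM in OIR and 948 CPM in control, a log2 ratio of 0.87. Among all genes it was number 63 by level in OIR and number 131 in control, by UMIs that are not corrected for gene length and so are not compared between genes otherwise.

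Nes, which was low in control, reached 52.5 CPM (46.6 to 59.1) in OIR against 8.33 CPM (5.34 to 12.4) in control, from 280 and 24 UMIs. Its log2 ratio was 2.66 (2.05 to 3.32), 6.31-fold. No cell of either library had 10 or more Nes UMIs. The gene was spread over 109 OIR cells and 22 control cells, and leaving out the shared barcodes gave a log2 ratio of 2.64.

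Among the secreted proteins, Lcn2 had 1012 UMIs in OIR, 190 CPM (178 to 202), and 4 UMIs in control, 1.39 CPM (0.378 to 3.55), a log2 ratio of 7.10 (5.74 to 8.97). Its UMIs were the most concentrated of the 6 genes called higher. They came from 53 OIR cells, 5 cells held 50% of them, and 1 cell of 68454 UMIs, whose barcode is shared, held 150. The median cell with the gene had 1 UMI, and 16 cells had 10 or more. Without the shared barcodes Lcn2 stood at 114 CPM (105 to 124) in OIR against 1.42 CPM in control, a log2 ratio of 6.33 (4.97 to 8.21). Keeping the barcodes removed as likely doublets gave 1138 OIR UMIs and 37 control UMIs in 658 and 440 cells, and a log2 ratio of 4.01 (3.54 to 4.52).

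Serpina3n had 412 UMIs in OIR, 77.3 CPM (70.03 to 85.2), and 0 UMIs in control. With 3 counts standing for the control's 0, OIR was at least 74.3-fold higher, a log2 bound of 6.21, or 60.1-fold (5.91) at the low end of the counting error of that bound. It was found in 80 OIR cells, of which 10 held 50% of its UMIs. Without the shared barcodes it stood at 59.04 CPM (52.4 to 66.3) in OIR and 0 in control, a bound of 5.80. Over all 8585 control cells kept the gene had 3 UMIs, all in rod-like cells, and with the doublet-like barcodes kept 2 control UMIs fell in Müller glia-like cells.

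The scaffold gene Akap12 had 559 UMIs in OIR, 105 CPM (96.4 to 114), and 5 UMIs in control, 1.73 CPM (0.563 to 4.05), a log2 ratio of 5.92 (4.69 to 7.55). It was in 131 OIR cells, 19 of which held 50% of its UMIs, and in 5 control cells with 1 UMI each. Without the shared barcodes the log2 ratio was 5.78, and with the doublet-like barcodes kept it was 4.10, from 849 UMIs in OIR and 26 in control.

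Steap4 was barely detected. It had 7 UMIs in 4 OIR cells, 1.31 CPM (0.528 to 2.71), and 0 UMIs in control, where 3 counts would be 1.04 CPM. The interval of the log2 bound began at -0.36, so no difference was detectable in these cells at this depth. With Müller glia set cell by cell from marker UMIs, Steap4 had 13 UMIs in OIR and 0 in control, a log2 bound of 1.49 (from 0.98). Without the shared barcodes 6 OIR UMIs remained against 0 in control.

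Deep and shallow cells were compared next, since OIR cells held more UMIs. In cells of 5000 to 15000 UMIs, 149 in OIR and 181 in control, Gfap stood at 150.5 CPM in OIR against 4.34 CPM in control, Nes at 66.8 CPM against 10.5 CPM and Vim at 2100 CPM against 1261 CPM. Lcn2 stood there at 152 CPM against 1.24 CPM, Akap12 at 129 CPM against 2.48 CPM and Serpina3n at 52.7 CPM against 0. These 6 genes were higher in OIR in that range of depth. Other ranges were less clear for some of them. Of cells with 30000 UMIs or more, 34 in OIR and 6 in control, Gfap stood at 148 CPM (129 to 169) in OIR and 86.9 CPM (53.1 to 134) in control, with intervals that overlapped. In control, 1 of the 6 cells held all 20 of those UMIs. From 15000 to 30000 UMIs, Gfap had 411 UMIs in 111 OIR cells and 0 in 43 control cells. Below 5000 UMIs the 30 control cells had 0 UMIs of Lcn2, Serpina3n, Gfap, Nes and Akap12, where 3 counts would be 39.4 CPM, a level that OIR Lcn2 and Serpina3n did not reach. Lcn2 differed most between depths within OIR, at 5.14 CPM in the 94 cells below 5000 UMIs, from 1 UMI, and 300.4 CPM in the 34 cells of 30000 or more. Vim fell with depth in both libraries, from 2937 CPM in OIR and 1431 CPM in control below 5000 UMIs. It was at 1601 CPM and 497 CPM from 15000 to 30000 UMIs, and at 1267 CPM and 330 CPM at 30000 UMIs or more. The ratio of Vim therefore differed between ranges of depth.

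After each cell was thinned to 1500 UMIs, which left out 35 OIR cells and 8 control cells, Gfap had a UMI in 10.5% (7.49 to 14.2) of 353 OIR cells and 0.397% (up to 2.19) of 252 control cells. Akap12 was in 13.6% of OIR cells, Nes in 7.93%, Serpina3n in 5.67% and Lcn2 in 4.82%, against 1.19% for Nes and 0 of 252 cells for the other 3 in control, with an exact upper limit of 1.45%. Vim was in 86.1% of OIR cells and 71.4% of control cells. The intervals of the 2 libraries did not overlap for these 6 genes, and Steap4 was in no thinned cell. Without thinning, the shares were 36.3% in OIR and 1.54% in control for Gfap, 33.8% and 1.92% for Akap12, 28.1% and 8.46% for Nes, 20.6% and 0 for Serpina3n, 13.7% and 1.54% for Lcn2 and 98.5% and 98.1% for Vim. For comparison, rod-like cells, with median depths of 1492.5 and 1407.5 UMIs, had thinned shares of 0.168% in OIR and 0.0337% in control for Gfap, 3.02% and 1.55% for Vim, and 1.51% and 0.979% for Lcn2. In control, Lcn2 stood at 9.31 CPM in rod-like, 1.39 CPM in Müller glia-like and 0.606 CPM in microglia-like cells. Rod-like cells therefore give no level of free RNA for Lcn2, and the part of free RNA was not tested. The shares of Gfap, Vim, Nes, Serpina3n, Lcn2 and Akap12 in OIR Müller glia-like cells were above those in OIR rod-like cells, with intervals that did not overlap.

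**Figure D2:**
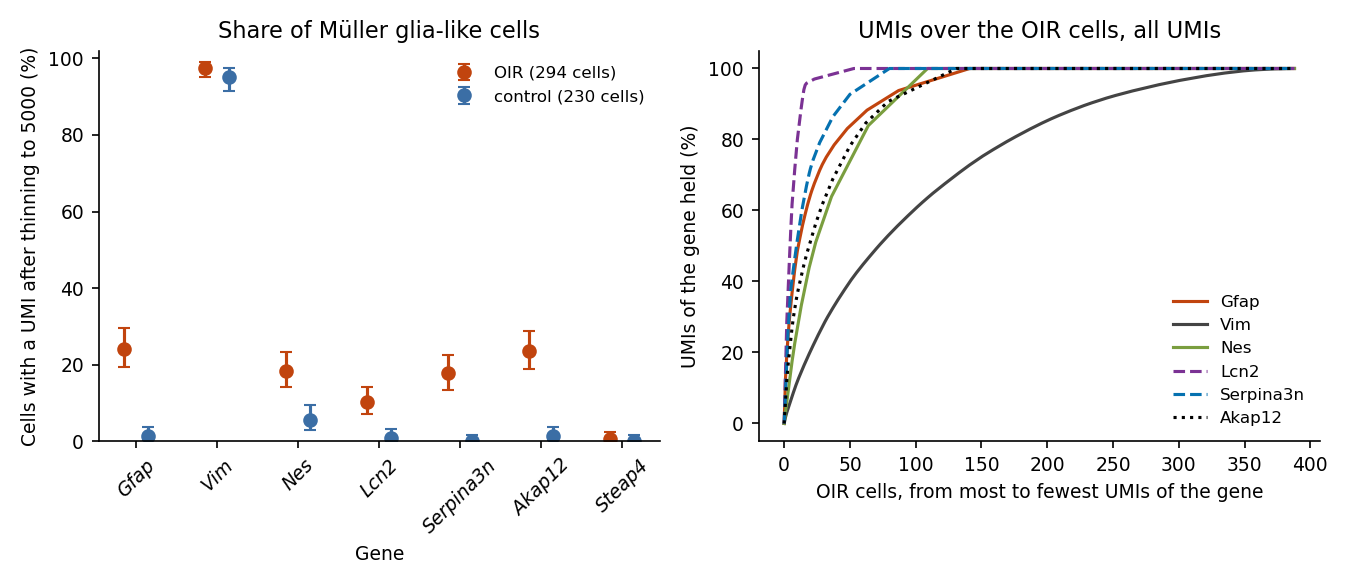
Left, percent of Müller glia-like cells with at least 1 UMI of each gene after thinning to 5000 UMIs, with Clopper-Pearson 95% intervals, for OIR (left of each pair) and control. Right, the percent of each gene's UMIs held by the OIR cells ranked from most to fewest: 5 cells reach 50% for Lcn2, 10 for Serpina3n, 11 for Gfap, 19 for Akap12, 24 for Nes and 72 for Vim.

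The genes overlapped in part within the OIR cells. After thinning to 5000 UMIs, 70 of 294 OIR cells (23.8%) and 2 of 230 control cells (0.870%) had a UMI of Lcn2 or Serpina3n. Gfap was found in 54.3% (41.9 to 66.3) of those 70 cells and in 14.7% (10.4 to 20.1) of the other 224 OIR cells, and Akap12 in 40% (28.5 to 52.4) and 18.3% (13.5 to 24.0). Nes was in 22.9% (13.7 to 34.4) and 17.0% (12.3 to 22.5) of them, with intervals that overlapped. Nes and Akap12 were found together in 29 cells: Nes was in 42.03% (30.2 to 54.5) of the 69 cells with Akap12 and in 11.1% (7.32 to 16.0) of the 225 without. Lcn2 and Serpina3n shared 12 cells, of 30 cells with Lcn2 and 52 with Serpina3n. Of the 294 OIR cells 146 had none of the 6 genes other than Vim, 69 had 1, 45 had 2, 22 had 3 and the other 12 had more, while 210 of 230 control cells had none, 19 had 1 and 1 had 2.

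Within the cluster, a finer clustering, also without the gliosis genes, gave 2 subclusters that the libraries filled unequally. One, led by Ndufa4l2 and S100a6, held 335 OIR cells and 71 control cells, and the other, led by Gpr37 and Spc25, held 53 OIR cells and 189 control cells. The median depth was 11002 UMIs in OIR and 19433 UMIs in control in the first, and 8621 and 8532 UMIs in the second. In the first, Gfap stood at 179 CPM in OIR and 0 in control, Vim at 1736 CPM and 526 CPM, Nes at 58.1 CPM and 6.91 CPM, and Akap12 at 116 CPM and 1.73 CPM. Lcn2 stood there at 209 CPM in OIR and 0.863 CPM in control. In the second, the differences were smaller: Gfap was at 44.7 CPM in OIR and 15.7 CPM in control, Lcn2 at 47.9 CPM and 1.74 CPM, and Akap12 at 20.7 CPM and 1.74 CPM. Vim there was at 1361 CPM in OIR and 1212 CPM in control, a log2 ratio of 0.17 (0.05 to 0.28), and Nes at 11.2 CPM and 9.28 CPM, with an interval that included 0. The intervals of the log2 ratio in the 2 subclusters did not overlap for Gfap, Vim and Nes, and did for Lcn2 and Akap12. Serpina3n, with 0 control UMIs in both subclusters, has only lower bounds there, 5.06 in the first and 2.20 in the second, which set no order. The libraries were alike in depth only in the second subcluster, and Vim fell with depth as given above. The part of depth in the differences between the subclusters was not tested.

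**Figure D3:**
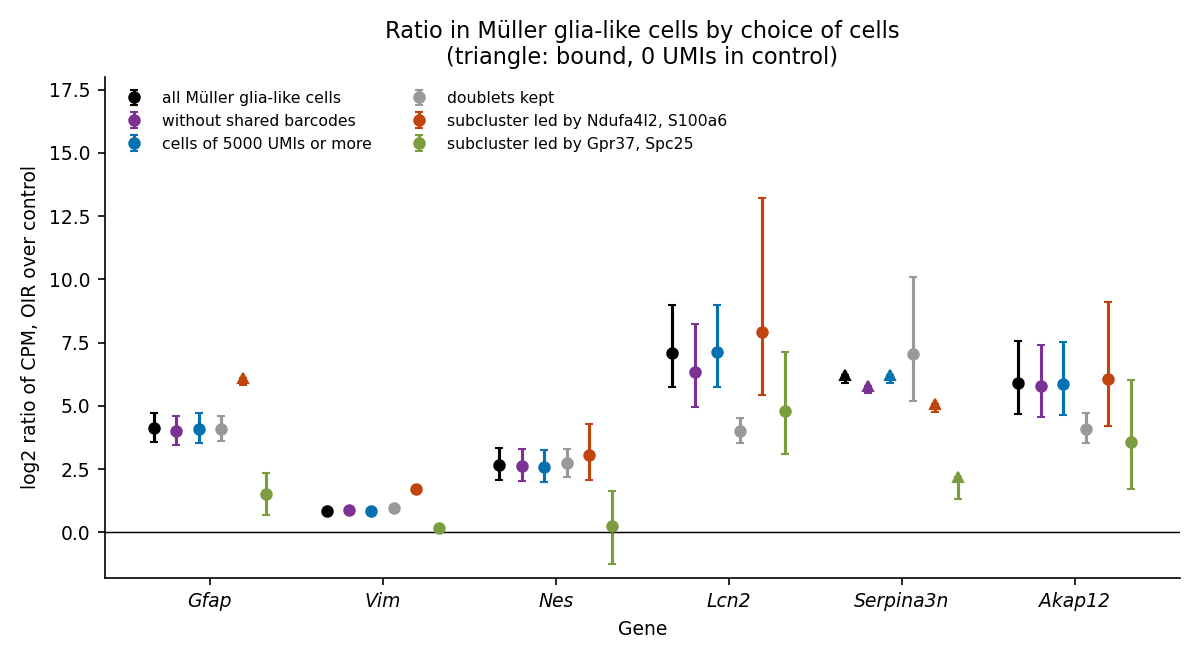
Log2 ratio of CPM, OIR over control, with exact 95% intervals, for 6 genes in Müller glia-like cells under 6 choices of cells, with triangles as bounds where control had 0 UMIs. Each point lies above 0, and the lowest are Vim at 0.17 and Nes at 0.27 in the subcluster led by Gpr37 and Spc25.

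Outside the Müller glia-like cells the members differed in where they were found. Of the 1129 Gfap UMIs in all OIR cells, 77.0% were in Müller glia-like cells and 19.7% in an unnamed cluster led by Ndufa4l2 and Opn1sw, which has leading genes of both cones and Müller glia and a median of 30830 UMIs. In that cluster Gfap stood at 37.9 CPM in 167 OIR cells and 0.488 CPM in 54 control cells. Serpina3n was distributed alike, with 77.9% of its 529 OIR UMIs in Müller glia-like cells and 13.4% in the same unnamed cluster. In rod-, cone-, bipolar- and microglia-like cells Gfap and Serpina3n were at or below 2.11 CPM in both libraries. In control, 61.4% of the 44 Gfap UMIs were in Müller glia-like cells, at 9.37 CPM. A further 22.7%, from 10 UMIs, were in 49 cells of an unnamed cluster led by Cldn5 and Rgs5, at 14.1 CPM. An unnamed cluster led by Crhbp and Optc had 29.2 CPM, from 2 UMIs in 5 control cells.

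Lcn2 in control was found mostly in photoreceptor-like cells: 64.1% of its 259 UMIs were in rod-like cells and 16.6% in cone-like cells, and 1.54% in Müller glia-like cells. It stood at 8.39 CPM in OIR and 9.31 CPM in control rod-like cells, and at 14.7 CPM and 8.93 CPM in cone-like cells, a log2 ratio of 0.72 (0.20 to 1.27) in cone-like cells, where the gene was under the 20 CPM needed for a call. Microglia-like cells had 0.468 CPM in OIR and 0.606 CPM in control, from 1 and 4 UMIs, below the photoreceptor-like cells of the same libraries. An unnamed myeloid cluster led by S100a9 and S100a8, genes known from neutrophils, also had Spp1, Hmox1, Lgals3 and Mmp12 among its 10 leading genes. It had 150 Lcn2 UMIs in OIR, 30.9 CPM, from 11 of 266 cells, and 15 in 42 control cells, 35.6 CPM. The highest level, 889 CPM from 298 UMIs, was in 18 OIR cells of an unnamed cluster led by Crhbp and Optc, whose 5 control cells had 43.8 CPM from 3 UMIs. The same 18 cells held 6 of the 14 Steap4 UMIs of the OIR library and 21 Serpina3n UMIs.

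Nes was found in myeloid and vascular clusters as well as in glia. In control, 57.8% of its 427 UMIs were in microglia-like cells and 31.4% in an unnamed cluster led by Cldn5 and Rgs5, genes of endothelial cells and pericytes, and 5.62% in Müller glia-like cells. In OIR the Müller glia-like share was 27.8%, and that of the cluster led by S100a9 and S100a8 was 39.7%, from 111 of its 266 cells. The microglia-like share was 10.6% in OIR, and that of the cluster led by S100a9 and S100a8 was 2.11% in control. These shares also follow the number of cells, 42 in control for that cluster. Its Nes level was 82.3 CPM in OIR and 21.3 CPM in control, the latter from 9 UMIs. The finer clustering gave a microglia-like cluster led by Spp1 and Hmox1, with 281 OIR and 34 control cells. It also gave a neutrophil-like cluster led by S100a9 and S100a8, with 52 and 23 cells. Which of these 2 held the Nes UMIs was not tested. At Leiden resolution 1, microglia-like cells stood at 50.03 CPM in OIR and 37.4 CPM in control, a log2 ratio of 0.42 (0.08 to 0.75), under the 1.5-fold limit. At Leiden resolution 0.5, where the class held 360 OIR cells and 693 control cells, it was 1.14 (0.91 to 1.37), over that limit.

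Vim was higher in OIR in several classes. In microglia-like cells it stood at 90.7 CPM in OIR and 14.4 CPM in control, a log2 ratio of 2.65 (2.29 to 3.02), where 11.2% of 6065 genes were called higher and 20.1% lower, and median-of-ratios scaling raises all log2 ratios of the class by 0.11. The class joins a cluster led by Selplg and P2ry12, with 142 OIR cells and 674 control cells, and a cluster led by Ftl1 and Aif1, with 285 OIR cells and 161 control cells, so most cells of the libraries sit in different clusters. At Leiden resolution 0.5 the Vim ratio was 4.22 (3.92 to 4.53). In rod-like cells it stood at 37.6 CPM and 15.0 CPM, a log2 ratio of 1.33 (1.10 to 1.56), where 3.87% of 6541 genes were called higher and 1.28% lower. In cone-like and bipolar-like cells no member reached 20 CPM, and 2.79% and 4.11% of the genes tested there were called higher and 2.09% and 6.26% lower. It was highest in the cluster led by Cldn5 and Rgs5, at 3459 CPM in 15 OIR cells and 1950 CPM in 49 control cells. Akap12 was likewise found in that cluster in both libraries, with 59.3% of its 172 control UMIs there, at 192 CPM in OIR and 144 CPM in control, an interval of the log2 ratio that included 0. In an unnamed cluster led by Calb1 and Snhg11, Vim stood at 1682 CPM in 31 OIR cells and 25.5 CPM in 65 control cells, and Akap12 at 197 CPM and 10.9 CPM. In OIR 6 of the 31 cells held all 582 Vim UMIs and 7 held all 68 Akap12 UMIs. Clusters of under 50 cells in a library are given as levels only.

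**Figure D4:**
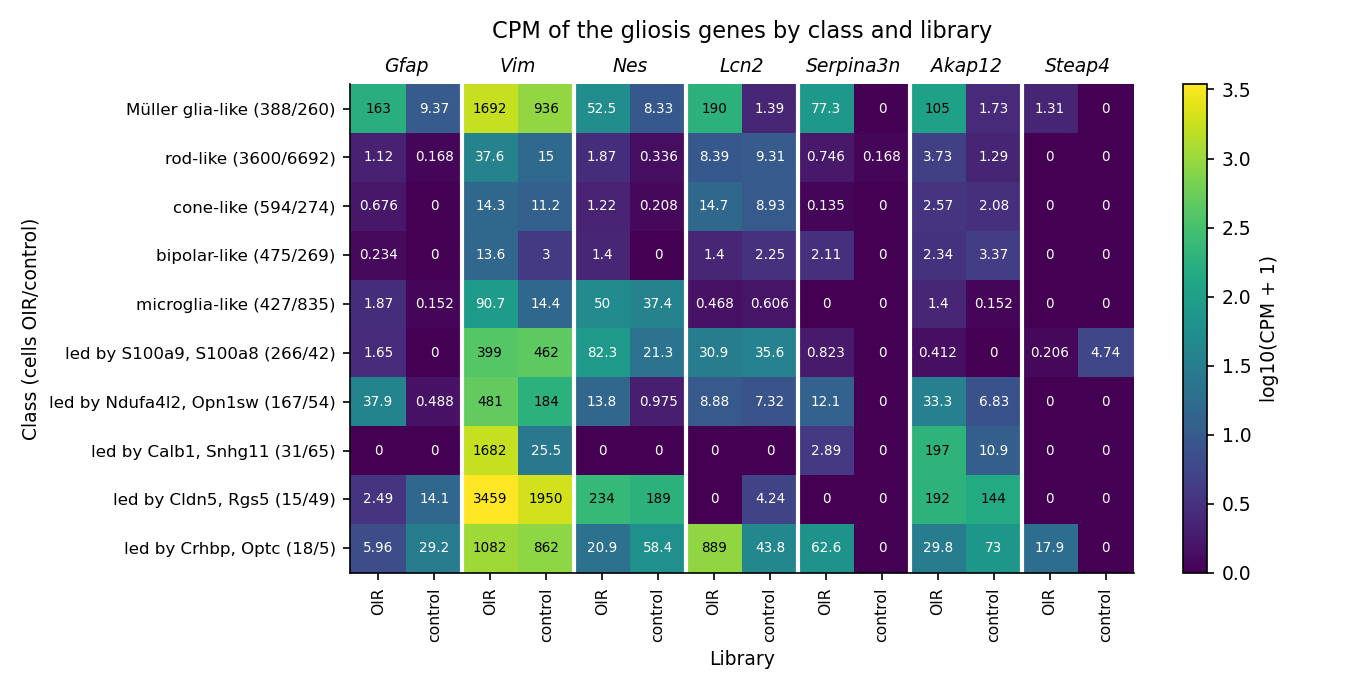
CPM of the 7 genes in 5 named classes and 5 unnamed clusters (rows, with OIR and control cell numbers), OIR left of control for each gene, coloured by log10(CPM + 1). Gfap and Serpina3n are bright in OIR Müller glia-like cells and dark in control, Vim and Nes are bright in the cluster led by Cldn5 and Rgs5 in both libraries, and Lcn2 is brightest in the OIR cells led by Crhbp and Optc.

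Genes that work with the members were read from lists chosen with earlier results of these data known. Of 13 partners of intermediate filaments 8 were measured, 4 were called higher and 0 lower, with a median log2 ratio of 0.57, against -0.04 over all 6869 genes. Of those 6869 genes 8.37% were called higher and 13.1% lower. The largest were Lmna, a nuclear lamin, at 53.7 CPM in OIR and 11.1 CPM in control (2.27), Synm, the filament protein synemin that pairs with vimentin, at 34.5 CPM and 13.5 CPM (1.35), and Plec, a linker of filaments (1.17). Of 8 genes that mark reactive astrocytes in general, 5 were measured, 3 called higher and 1 lower. Timp1, an inhibitor of matrix metalloproteases, stood at 61.7 CPM in OIR and 0.694 CPM in control (6.48), and Osmr, the oncostatin M receptor, at 45.2 CPM and 10.8 CPM (2.07). S1pr3, a receptor of sphingosine 1-phosphate, was lower, with 61.9 CPM in OIR and 104 CPM in control (-0.74). Of the 11 genes described for astrocytes after endotoxin (A1) only 3 were measured, with 2 called higher and 0 lower. Of the 12 described after ischaemia (A2) only 2 were measured, with 1 called higher and 1 lower. Of these, Serping1, a complement inhibitor, had a log2 ratio of 1.95, H2-D1 of 0.94, Psmb8 of -0.16, S100a10 of 1.42 and Sphk1 of -0.79.

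In the gp130 and STAT3 list, which holds cytokines, receptors and signal carriers known to act upstream of Gfap, 2 of 8 measured genes were called higher and 1 lower. Stat3 stood at 103 CPM in OIR and 37.8 CPM in control (1.45), beside Osmr, and the receptor gene Cntfr was lower, at 48.6 CPM against 86.0 CPM (-0.82). Of 9 measured NF-kB genes 3 were called higher and 1 lower, led by the inhibitor Nfkbia at 98.2 CPM against 48.6 CPM (1.01), with Nfkb1 at 0.73 and the kinase Ikbkb at -0.73. Of 6 measured partners of Akap12, 2 were called higher, the protein kinase A subunit Prkar2a (0.75) and the cyclin Ccnd1 (0.62), and 0 lower, and Prkaca had -0.21. Among Steap and iron genes, 0 of 5 measured were called higher and 1 lower. The lower one was Slc22a17, which encodes a receptor of lipocalin 2, at 53.1 CPM in OIR and 114 CPM in control (-1.10), while the ferritin genes Fth1 (0.46) and Ftl1 (0.45) stayed under 1.5-fold. Of 13 measured genes of Müller glia homeostasis 11 were called lower and 0 higher, led by the water channel Aqp4 (-1.66), Abca8a (-1.43) and the retinoid carrier Rlbp1 (-1.42). Several of these are also the markers that defined the cluster. Beside these counts, 8.37% of all 6869 genes were called higher and 13.1% lower, with a median log2 ratio of -0.04. The medians were 0.08 for the gp130 and STAT3 list, 0.45 for NF-kB and 0.18 for Akap12 partners. They were 0.45 for Steap and iron genes and -1.06 for homeostasis genes.

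**Figure D5:**
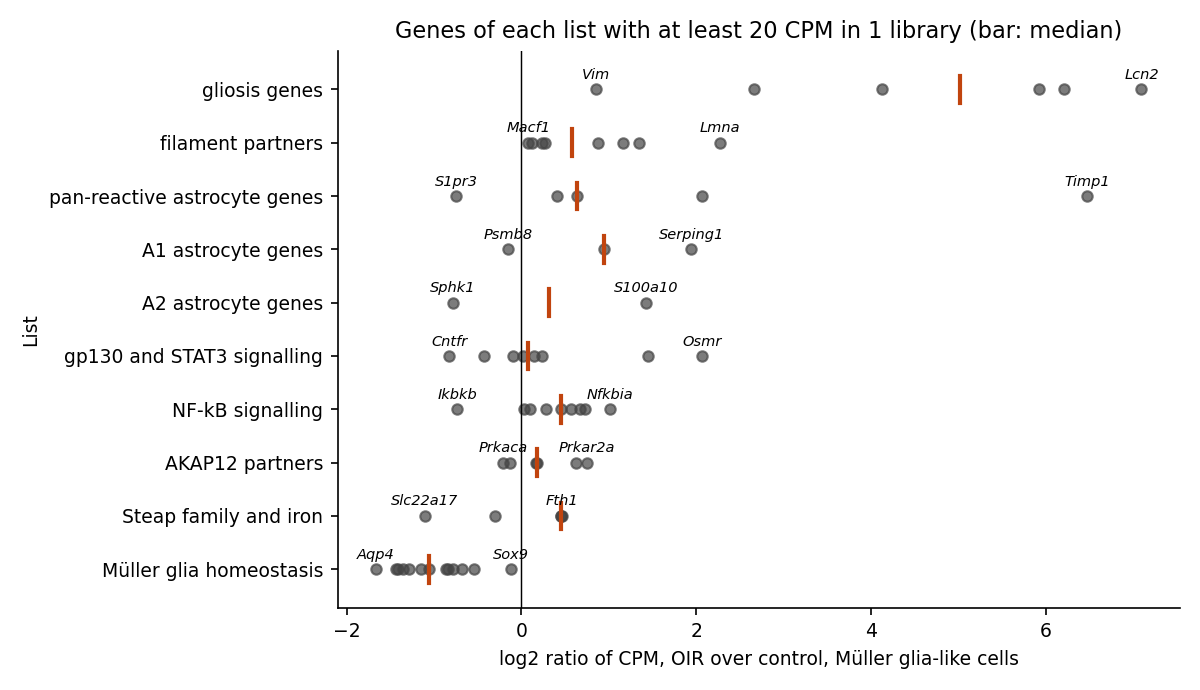
Log2 ratio of CPM, OIR over control, in Müller glia-like cells for each gene with at least 20 CPM in 1 library (points) by list, with the list's median as a bar and its lowest and highest genes named. The gliosis genes run from 0.85 (Vim) to 7.10 (Lcn2), with Serpina3n at its bound, and the homeostasis genes from -1.66 (Aqp4) to -0.12 (Sox9).

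The genes most like each member were sought over 10 points, the sums of 5 classes in 2 libraries, among 5867 genes, by Pearson's r of log2(CPM + 10). These points share libraries and depth, so r only describes them. Gfap was most like Cdh13 (r = 0.993), Adm, which encodes adrenomedullin (0.990), and Parm1 (0.982). Serpina3n was most like Timp1 (0.993), Akap12 (0.992) and Adm (0.990), and Akap12 most like Timp1 (0.995), Serpina3n (0.992) and Adm (0.982). Lcn2 had lower values, 0.947 with Akap12, 0.943 with Timp1 and 0.931 with Serpina3n. Vim was most like S100a10 (0.980), Gstm1 (0.978) and S100a11 (0.978), and Nes most like Gng12, Zfp703 and Eif4ebp1, at 0.972, 0.972 and 0.971. Of these genes Adm stood at 83.5 CPM in OIR and 3.47 CPM in control Müller glia-like cells, and Gstm1, unlike Vim itself, at 110 CPM and 120 CPM with an interval that included equality.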

How the data were processed

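Each deposited file holds whole-number UMI counts, one per gene and barcode, for 2 droplet libraries. Per the submitters' processing notes and the header of the matrix, the authors counted with Cell Ranger 3.0.2 against mm10, and the sources used here do not name the annotation release, the cell calling or the strand setting. The members and all gene lists were chosen with earlier results of these data known.

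A barcode was kept if it had 500 genes or more and mitochondrial UMIs of 10% or less. Scrublet's automatic threshold marked 0 OIR barcodes and 1 control barcode, so the top-scoring 5.82% and 8.66% were removed, leaving 6132 OIR cells and 8585 control cells. Cells of both libraries were clustered together with scanpy 1.11.5 (2000 variable genes without the gliosis lists, 30 components, 20 neighbours, Leiden resolution 1). Clusters were named "-like" from marker lists. By a rule added after seeing the data, a cluster stayed unnamed where another class held 2 or more of its 10 leading genes or where most of the class's markers were not detected in 10% of its cells.

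Counts were summed per class and library and scaled to CPM, with exact Poisson intervals, exact conditional binomial intervals for ratios and Clopper-Pearson intervals for shares, all at 95%. A count of 0 was set to 3 counts. No test was made, since each group is 1 library. Shares were also taken after thinning each cell to 1500 UMIs, or to 5000 UMIs, a depth chosen after seeing the data. Named genes were all members, the 3 measured genes of each list with the largest absolute log2 ratio, and the 3 genes most like each member. Other list genes, such as close copies of a member, were named where a sentence needed them. On counts simulated for the comparison of OIR and control Müller glia-like sums over 6472 genes, all 50 genes changed 2-fold and all 50 changed 4-fold were called, against 1 of 50 changed 1.25-fold and 12 of the 6272 left as they were. Only genes with at least 20 CPM in control were simulated, with counting error alone and no clumping of UMIs in few cells. Of the members only Vim reached that control level, so these rates do not cover the other members. Thinning was tested on simulated cells too. GENCODE M21 held 99.6% of the 31053 gene identifiers.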

Additional observations from a re-analysis of the deposited data

How the results depend on the processing

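Over the alternatives run, the log2 ratio in Müller glia-like cells was positive. It lay between 3.36 and 6.11 for Gfap, 0.43 and 1.72 for Vim, 2.36 and 3.31 for Nes and 4.01 and 7.92 for Lcn2. For Serpina3n it lay between 2.80 and 8.01 and for Akap12 between 2.80 and 6.35. Values with 0 control UMIs are bounds that fall with control depth, among them 6.11 for Gfap and 2.80 for Serpina3n, from 170 UMIs against 0. The 8.01 for Serpina3n rests on 1 control UMI. With at least 1000 genes and at most 5% mitochondrial UMIs, which left 198 OIR cells and 35 control cells, Gfap was at 5.82, Lcn2 at 5.46 and Akap12 at 2.80. Serpina3n was there at a bound of 2.80. With at least 200 genes and at most 20%, Gfap was at 3.36, Lcn2 at 4.59 and Akap12 at 4.68. At Leiden resolution 0.5, Vim was at 0.78, Lcn2 at 4.89 and Akap12 at 4.49. With no doublet removal, Vim was at 0.94, Lcn2 at 4.01 and Akap12 at 4.10. With cells set one by one from marker UMIs, Vim was at 1.06, Lcn2 at 5.37 and Akap12 at 4.29. Vim was at 0.97 without cells over 2% rod marker UMIs and at 0.92 under median-of-ratios scaling, which raised all log2 ratios of the class by 0.07, and Gfap was at 4.89 with each cell weighted equally. Leaving out every cell with a neutrophil, astrocyte, endothelial or pericyte marker UMI left 30 OIR cells and 4 control cells, gave Vim at 0.43 (-0.52 to 1.58) and gave no value for the other members. Among settings chosen after seeing the data, the subcluster led by Ndufa4l2 and S100a6 gave 1.72 for Vim and bounds of 6.11 for Gfap and 5.06 for Serpina3n. Cells without shared barcodes gave a bound of 5.80 for Serpina3n. Cells without a UMI of a defining astrocyte, vessel or neutrophil marker gave a bound of 5.35 for Serpina3n. Leaving out the cell with the most Gfap in each library gave 5.86 for Gfap. The other 79 values for the members in Müller glia-like cells lay within the interval of the value reported, or within 1.5 times of a count. Steap4 ranged between bounds of 0.08 and 1.49, and its interval excluded 0 in the per-cell setting. Of the values for other classes and lists 18 moved more and 62 did not. At Leiden resolution 0.5 Vim was at 4.22 and Nes at 1.14 in microglia-like cells, and Vim at 1.10 and Akap12 at 1.74 in cone-like cells. At 2-fold the lists had 1 NF-kB, 1 A1 and 0 AKAP12-partner genes higher and 7 homeostasis genes lower, and 0 lower in the pan-reactive, A2, STAT3 and NF-kB lists. At 50 CPM or more 2 filament partners and 1 gene each of the STAT3, NF-kB and A1 lists were higher, and 0 of the A2 and NF-kB lists lower. The causes were not tested. Over all genes in Müller glia-like cells, 575 higher and 898 lower calls became 203 and 311 at 2-fold and 337 and 425 at 50 CPM or more. The number of genes with a higher thinned share was 6 at 1000 UMIs and 5 at 2500 UMIs, at 5000 UMIs and without thinning, where Vim dropped out. No paired analysis was possible because each group is 1 library and no test was made. Depth limits Steap4 and every control level below about 1.04 CPM, the level of 3 counts.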
